A study of Mus musculus with 6 samples.

Results

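The Bcl2 family holds the proteins that decide whether the outer membrane of the mitochondrion is opened during the intrinsic pathway of apoptosis. Pro-survival members such as Bcl2, Bcl-xL (Bcl2l1) and Mcl1 bind and restrain the effectors Bax and Bak1, which form the pores through which cytochrome c leaves. The BH3-only members, among them Bid, Bad, Bim (Bcl2l11), Noxa (Pmaip1) and Puma (Bbc3), sense stress or loss of growth factors and act on the other 2 classes, largely by binding. In the injured artery, apoptosis of smooth muscle cells is known to accompany the growth of the neointima.

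The 10 genes named above were followed across carotid arteries of SMC-IRF9-TG and NTG mice. The members were taken as all probe sets whose symbol in the array annotation was exactly 1 of these 10 names, which gave 29 probe sets of 9 genes out of 45037 probe sets and 18193 genes tested. A probe set is the group of short oligonucleotides on the array that reports 1 transcript or part of it. Bax was not analysed here, because the annotation table used pairs no probe set with its symbol alone. Mcl1 had 6 probe sets, Bcl2 and Bcl2l11 had 5 each, Bcl2l1 had 4, Bid had 3, Bad and Bak1 had 2 each, and Pmaip1 and Bbc3 had 1 each.

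SMC-IRF9-TG mice carried a mouse Irf9 cDNA with an HA tag under the mouse SM22α promoter, which acts mainly in smooth muscle, and NTG mice were their non-transgenic controls. The strain was C57BL/6 in the labels and C57BL/6J in the study's methods, which give male mice of 10 to 12 weeks, and all carotid arteries had undergone wire injury and were taken 14 days later. Each of the 6 arrays, 3 per genotype, held 400 ng of RNA from a pool of 3 to 5 vessels, so that the spread between arrays is a spread between pools. Of several transgenic lines, 1 was chosen for the later phenotyping, and whether the arrayed vessels came from it is not stated for the arrays themselves.

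The pools were not alike in every respect. The Irf9 probe set, 1421322_a_at, read 5.46, 5.41 and 5.58 in the SMC-IRF9-TG pools, against 4.75, 5.43 and 5.36 in the NTG pools on the log2 scale (adjusted p = 0.437, limma), so it did not separate the genotypes. Where its oligonucleotides lie relative to the cDNA of the transgene is not known here. At the protein level, the study reported more IRF9 in SMC-IRF9-TG than in NTG arteries, by western blot and by staining. The blots with a stated time were of sham-operated vessels or of a later day after injury than the arrays. The study also described IRF9 in its chosen transgenic line as similar to that of wild-type arteries 14 days after injury, the day of the arrays. Xist, which female cells transcribe from the inactive X chromosome, was at 2.94 to 3.72 in the SMC-IRF9-TG pools, whereas NTG replicates 1 and 2 stood at 9.94 and 9.50 and NTG replicate 3 at 4.08, which goes against the stated male sex in 2 NTG pools. The 3′ probe set of Actb exceeded its 5′ probe set by 1.56 to 2.50 log2 units in the SMC-IRF9-TG pools and by 7.09 in NTG replicate 2, against 2.21 and 3.03 in the other NTG pools. The poly-A spike-in controls averaged 4.66, 4.22 and 8.30 in the SMC-IRF9-TG pools, against 6.95 to 10.6 in the NTG pools. Smooth muscle markers passed the test in 0 of 10 cases (limma). Acta2 was bright in both groups, at 13.6 and 13.4 on average in SMC-IRF9-TG and NTG pools. The mean level of the smooth muscle list was 9.04 in NTG replicate 2, against 9.47 to 9.81 in the other pools. Macrophage markers were higher in SMC-IRF9-TG pools for 13 of 15 genes, and their mean log2 level was 7.39 to 7.67 in these pools against 3.60 to 4.29 in NTG pools. In such whole-vessel samples, fewer cells of a type and less RNA per cell cannot be told apart.

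The promoters of the 3 members with the lowest adjusted p in the comparison, Mcl1, Bid and Bcl2l11, are shown as context for the genes described below. They are RefSeq windows of the GRCm38.p6 build, each running from 250 bases before to 50 bases after a gene's start, written 5′ to 3′ on the gene's own strand, with CG dinucleotides in capitals. The Mcl1 window is chr3:95658471-95658770 on the plus strand, the Bid window is chr6:120916775-120917074 on the minus strand, and the Bcl2l11 window, 1 of 2 for that gene, is chr2:128125788-128126087 on the plus strand.
Mcl1: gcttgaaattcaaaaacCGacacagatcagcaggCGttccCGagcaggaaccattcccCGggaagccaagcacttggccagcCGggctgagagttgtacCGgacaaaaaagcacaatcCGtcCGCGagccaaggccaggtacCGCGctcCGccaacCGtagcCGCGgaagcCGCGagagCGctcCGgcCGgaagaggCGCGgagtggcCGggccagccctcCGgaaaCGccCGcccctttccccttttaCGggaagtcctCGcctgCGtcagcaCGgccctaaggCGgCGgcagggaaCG
Bid: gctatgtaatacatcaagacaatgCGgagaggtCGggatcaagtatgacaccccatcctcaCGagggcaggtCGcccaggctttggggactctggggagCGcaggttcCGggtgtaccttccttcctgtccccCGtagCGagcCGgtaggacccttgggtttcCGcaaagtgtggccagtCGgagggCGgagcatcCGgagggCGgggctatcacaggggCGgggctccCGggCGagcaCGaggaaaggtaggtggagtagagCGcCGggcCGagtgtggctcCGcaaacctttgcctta
Bcl2l11: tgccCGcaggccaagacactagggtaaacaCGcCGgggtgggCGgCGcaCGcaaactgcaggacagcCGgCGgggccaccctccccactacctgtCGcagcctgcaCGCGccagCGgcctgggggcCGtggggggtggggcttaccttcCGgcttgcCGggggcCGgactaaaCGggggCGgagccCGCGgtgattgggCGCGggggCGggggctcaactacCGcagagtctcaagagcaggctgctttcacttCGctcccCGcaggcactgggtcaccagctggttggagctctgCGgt
The windows hold 33, 22 and 27 CG dinucleotides in Mcl1, Bid and Bcl2l11, in that order. Windows were found for 9 of the 10 members (15 windows), all but Pmaip1. Across them the median number of CG dinucleotides was 27, with a range of 1 in a window of Bcl2l1 to 44 in that of Bcl2, and the median over all 32851 windows was 7. The GC content of the member windows had a median of 65.7%, against 52.7% over all windows. The core of the interferon-stimulated response element bound by complexes that contain Irf9, written as GAAANNGAA, was in 0 of the 15 member windows and in 8.56% of all windows, on either strand. The AP-1 site TGANTCA was in 0 of the 15 and in 7.81% of all windows. The study itself used another rule for potential IRF9 sites, at least 2 repeats of GAAA, and the windows were not searched by that rule. The absence of the letters searched here thus does not show that a window lacks a site by the study's rule. It also says nothing about binding elsewhere.

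Most probe sets of the family did not pass the test between the genotypes, which does not show that their levels were equal. Levels are log2 values made by RMA, differences are SMC-IRF9-TG minus NTG, and a probe set was called when its p from limma, adjusted by the Benjamini-Hochberg method over all 45037 probe sets, was under 0.05. Of the 29 probe sets, 1 rose, 0 fell and 28 did not pass. Among all probe sets, 2.37% were called higher and 0.373% lower, so 1 of 29 is about the share found on the whole array. When each gene was read from its brightest probe set, 0 of the 9 genes were called in either direction, where 3.11% of all genes were called higher and 0.511% lower. At an unadjusted p under 0.05, 6 of the 29 probe sets were higher and 3 lower, against 11.2% and 11.1% of all probe sets. The methods' t-test called 0 of 29 after adjustment and 5 of 29 before it, and 1 and 8364 of all probe sets.

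The SMC-IRF9-TG pools lay wholly above the NTG pools in 5 of the 29 probe sets and wholly below them in 3, where 12.1% and 19.2% of all probe sets did so. The median difference over the 29 was -0.03, and -0.13 over all probe sets. With 3 pools a group, the exact permutation test cannot give a two-sided p below 0.1, and the probe sets without overlap all stood at that limit. The 95% confidence interval of a single difference reached from 0.41 to 1.06 log2 units on either side of it, so changes of less than about that size were not resolved by 6 arrays. These intervals are not adjusted for the number of probe sets, and a call took a larger change. Bid 1417045_at at 1.47 and Bcl2 1440770_at at -1.25 had intervals clear of 0 and were not called.

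**Figure D1:**
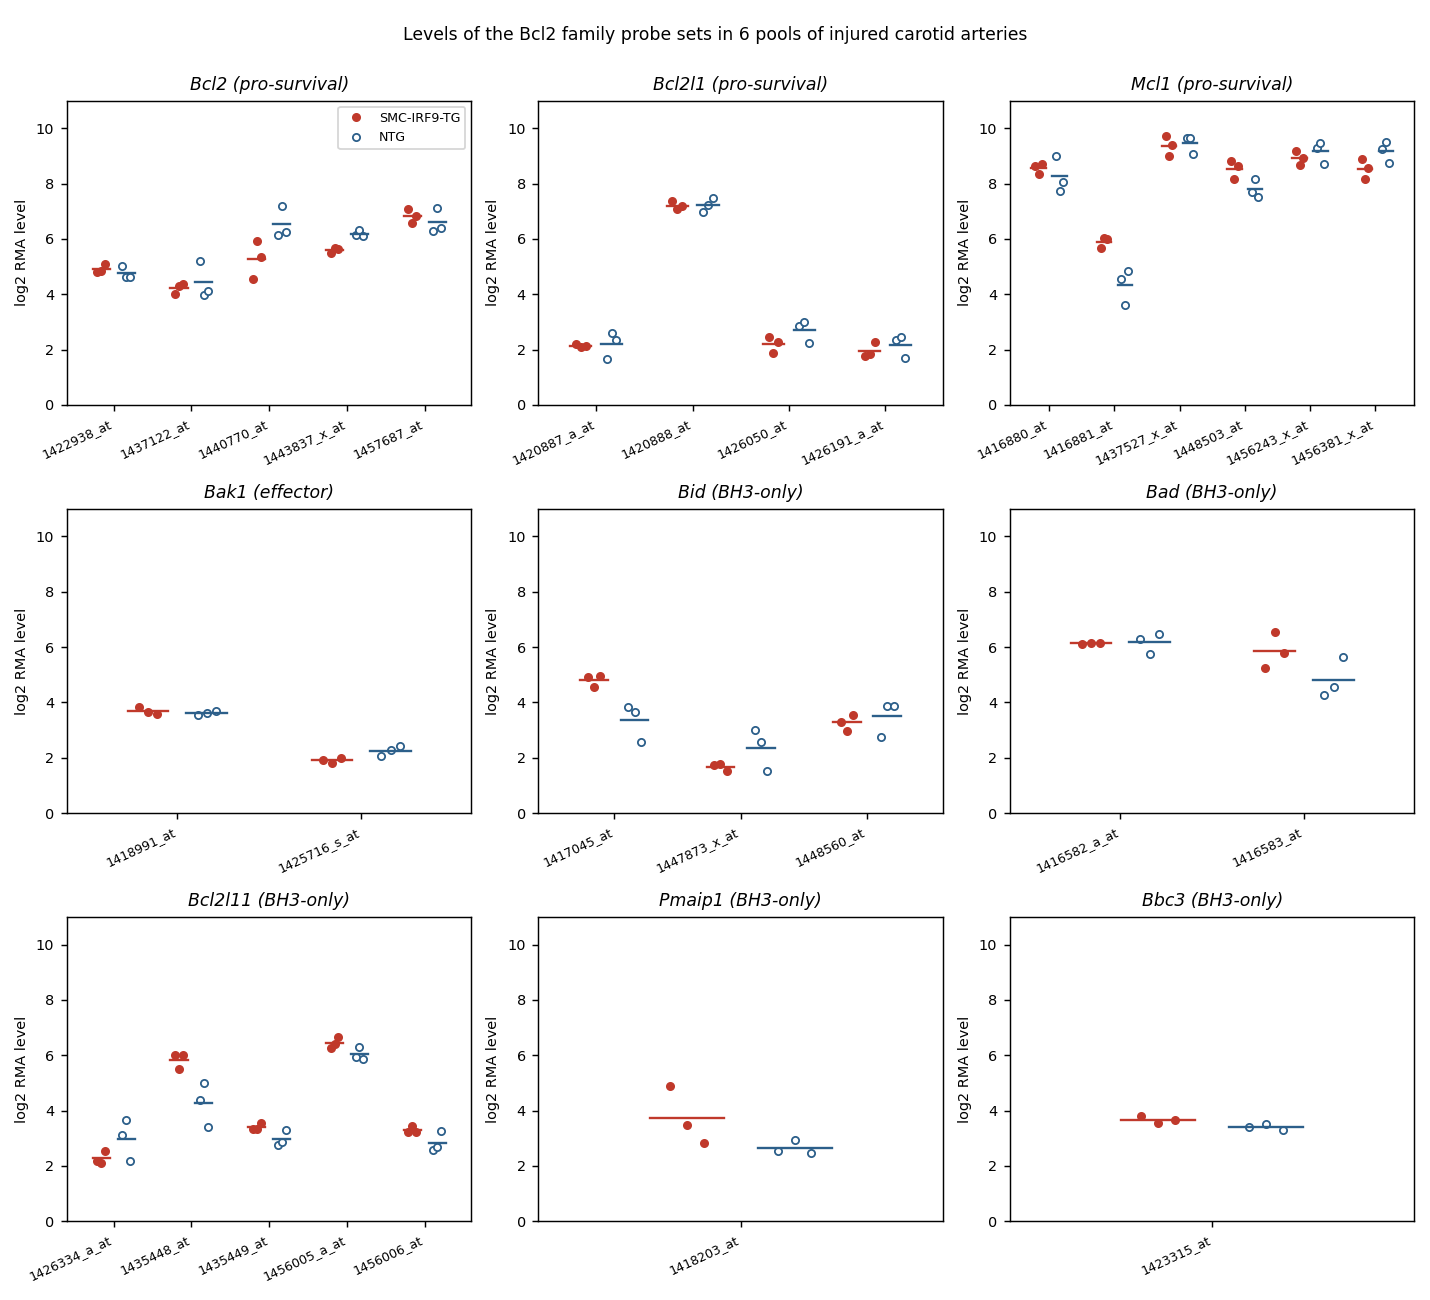
Log2 RMA level (vertical axis) of each of the 29 probe sets in every pool, 1 panel per gene; filled points are SMC-IRF9-TG pools, open points NTG pools, and short lines the group means (n = 3 each). The groups overlap in 21 of the 29 probe sets, and probe sets of 1 gene differ in both level and direction.

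Mcl1, a short-lived pro-survival protein whose loss frees Bak1, gave the only call of the family, and it came from 1 of its 6 probe sets. Probe set 1416881_at read 5.69, 6.02 and 6.00 in the SMC-IRF9-TG pools, against 4.54, 3.60 and 4.86 in the NTG pools. Every SMC-IRF9-TG pool was above every NTG pool, and the NTG pools were spread more widely. Its means were 5.90 ± 0.19 in SMC-IRF9-TG and 4.33 ± 0.65 in NTG pools (SD, n = 3 each), a difference of 1.57 with a standard error of 0.32 and a 95% interval of 0.84 to 2.30, or 2.97-fold (adjusted p = 0.0418, limma).

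The lowest NTG pool was replicate 2, the pool with the widest gap between the 3′ and 5′ probe sets of Actb, and without it the difference was 1.20 and the call held (adjusted p = 0.0309, limma). The call was lost when any of the SMC-IRF9-TG pools was left out, with an adjusted p of 0.112 without replicate 1, 0.174 without replicate 2 and 0.148 without replicate 3, and also without NTG replicate 1 (adjusted p = 0.0908, limma). The differences in these fits were 1.68, 1.51, 1.52 and 1.67, in that order. Calls over all probe sets numbered 401, 320, 453 and 581 in the same fits, in place of 1237. Macrophage markers moved with it, as given above, and their part in the difference was not tested.

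The other 5 Mcl1 probe sets did not pass the test, and they differed in direction. Probe set 1448503_at was at 8.82, 8.15 and 8.62 in SMC-IRF9-TG pools and at 7.70, 8.15 and 7.51 in NTG pools, a difference of 0.74 (standard error 0.26, adjusted p = 0.153, limma), with replicate 2 of both groups at the same level. In the opposite direction, 1456381_x_at was at 8.87, 8.16 and 8.56 in SMC-IRF9-TG pools and at 9.25, 9.51 and 8.74 in NTG pools, a difference of -0.63 (standard error 0.27, adjusted p = 0.217, limma). The intervals of these 2 differences, 0.16 to 1.33 and -1.25 to -0.01, do not overlap, although both carry the Mcl1 symbol. The suffix _x_at marks sets whose oligonucleotides may also match other sequences. The brightest Mcl1 probe set, 1437527_x_at, differed by -0.10 (95% interval -0.70 to 0.50), and the remaining 2, 1416880_at and 1456243_x_at, by 0.30 and -0.23.

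Bcl2, the founding pro-survival member, had 3 of its 5 probe sets below 0, 2 of them with no overlap between the groups, and none passed the test. Probe set 1443837_x_at read 5.49, 5.68 and 5.63 in SMC-IRF9-TG pools, against 6.15, 6.31 and 6.12 in NTG pools. Both groups were tight and did not overlap, and the difference was -0.59 with a standard error of 0.18 (95% interval -1.01 to -0.18, adjusted p = 0.124, limma). Probe set 1440770_at read 4.56, 5.94 and 5.34 in SMC-IRF9-TG pools, against 6.14, 7.17 and 6.27 in NTG pools, again without overlap. Its difference was -1.25 with a standard error of 0.39 (95% interval -2.14 to -0.35, adjusted p = 0.130, limma).

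The other 3 Bcl2 probe sets did not share this pattern. The brightest, 1457687_at, was at 7.08, 6.58 and 6.82 in SMC-IRF9-TG pools and at 6.30, 7.11 and 6.40 in NTG pools, where NTG replicate 2 was above every SMC-IRF9-TG pool and the other NTG pools were below them. It differed by 0.22 (95% interval -0.38 to 0.83). Probe sets 1422938_at and 1437122_at differed by 0.16 and -0.21, and NTG replicate 1, at 5.21, stood above the rest in 1437122_at.

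Bcl2l1, which encodes the long-lived pro-survival protein Bcl-xL and its shorter pro-apoptotic isoform, was measured well by 1 of its 4 probe sets. Probe set 1420888_at was at 7.35, 7.08 and 7.18 in SMC-IRF9-TG pools and at 6.99, 7.23 and 7.48 in NTG pools. The groups were interleaved, and the difference of -0.03 had a 95% interval of -0.50 to 0.44. The SMC-IRF9-TG means of the other 3 probe sets, 1420887_a_at, 1426050_at and 1426191_a_at, lay between 1.95 and 2.20 and their NTG means between 2.18 and 2.69. The SMC-IRF9-TG means are under the average lower quartile of the SMC-IRF9-TG arrays, 2.38. The NTG means of 1420887_a_at and 1426191_a_at, but not that of 1426050_at, are under that of the NTG arrays, 2.62. These 3 sets may thus not report a signal above background.

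Bak1, the measured effector, sits in the outer mitochondrial membrane, where Mcl1 and Bcl-xL hold it in check. Its brighter probe set, 1418991_at, was at 3.84, 3.67 and 3.59 in SMC-IRF9-TG pools and at 3.53, 3.61 and 3.70 in NTG pools. The groups overlapped, and the difference of 0.09 had a 95% interval of -0.33 to 0.51. Probe set 1425716_s_at was below the lower quartile in both groups, at means of 1.90 in SMC-IRF9-TG and 2.25 in NTG pools, and is not read further.

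**Figure D2:**
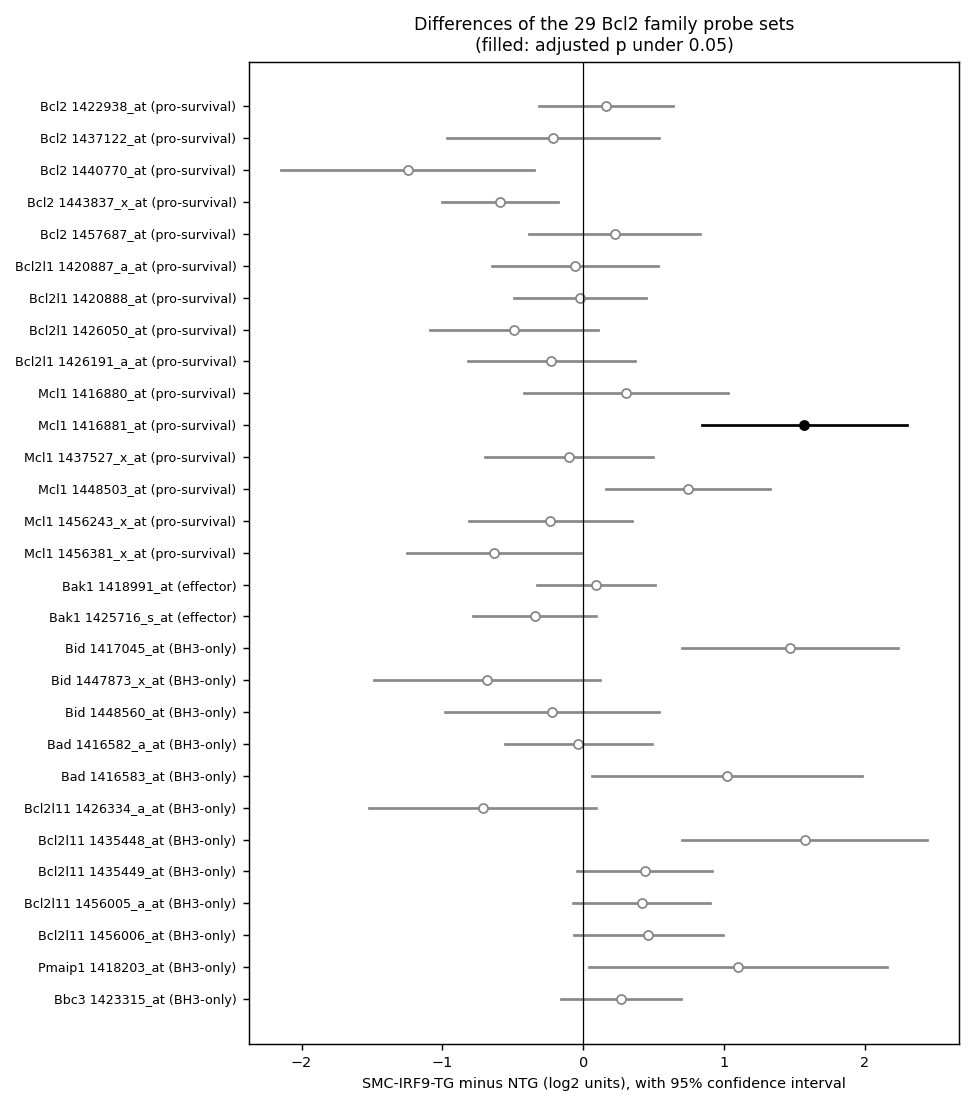
Difference of SMC-IRF9-TG minus NTG in log2 units (horizontal axis) for the 29 probe sets, grouped by class of protein; lines are 95% confidence intervals from limma and the filled point is the probe set with an adjusted p under 0.05. The filled point is Mcl1 1416881_at at 1.57, and Bid 1417045_at and Bcl2l11 1435448_at lie near it at 1.47 and 1.57 without passing.

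The BH3-only genes held most of the differences above 0, but none of their 12 probe sets passed the test. Of the 12, 8 were above 0 and the median difference was 0.43. Bcl2l11 alone gave 4 of these 8, and probe sets of 1 gene are not independent. By the brightest probe set 4 of 5 genes were above 0. Of the 15 pro-survival probe sets 5 were above 0, and their median was -0.10. Over the whole array, 17474 of 45037 probe sets were above 0, and 8419 of 18193 genes by the brightest probe set. The medians of both classes were not tested against each other.

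Bid links the death receptors to the mitochondrion once caspase 8 has cut it. Its brightest probe set, 1417045_at, read 4.93, 4.55 and 4.96 in SMC-IRF9-TG pools, against 3.82, 3.67 and 2.55 in NTG pools. The groups did not overlap, and NTG replicate 3 was the lowest pool. The means were 4.81 ± 0.23 in SMC-IRF9-TG and 3.35 ± 0.69 in NTG pools (SD, n = 3 each), and the difference was 1.47 with a standard error of 0.34 (95% interval 0.70 to 2.23, adjusted p = 0.0613, limma). Without NTG replicate 3 the difference was 1.07 and its adjusted p was 0.0445, past the threshold. Another probe set, 1448560_at, was at 3.30, 2.98 and 3.56 in SMC-IRF9-TG pools and at 2.74, 3.88 and 3.87 in NTG pools, with the groups interleaved and a difference of -0.22. The last, 1447873_x_at, had means under the lower quartile in both groups.

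Bcl2l11, whose product Bim binds every pro-survival member and rises in many cells when growth factors are withdrawn, showed the largest difference of the 29, again without a call. Probe set 1435448_at read 6.02, 5.51 and 6.00 in SMC-IRF9-TG pools, against 4.40, 5.01 and 3.41 in NTG pools. All SMC-IRF9-TG pools were above all NTG pools, and the means were 5.84 ± 0.29 in SMC-IRF9-TG and 4.27 ± 0.81 in NTG pools (SD, n = 3 each). The difference was 1.57 with a standard error of 0.38 (95% interval 0.70 to 2.44, adjusted p = 0.0722, limma), and without NTG replicate 2 it was 1.94 with an adjusted p of 0.0293.

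Other Bcl2l11 probe sets had smaller differences. The brightest, 1456005_a_at, was at 6.26, 6.41 and 6.68 in SMC-IRF9-TG pools and at 5.94, 6.30 and 5.86 in NTG pools, a difference of 0.42 with a 95% interval of -0.07 to 0.90. Probe sets 1435449_at and 1456006_at differed by 0.44 and 0.46, and the SMC-IRF9-TG pools of 1435449_at lay just above the NTG pools, the closest being 3.34 and 3.29. Only 1426334_a_at went the other way, by -0.71 (adjusted p = 0.265, limma), at a dim SMC-IRF9-TG mean of 2.27 against 2.99 in NTG pools.

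Bad, which is held inactive by survival kinases through 14-3-3 proteins, gave different answers by probe set. Probe set 1416583_at was at 5.24, 6.53 and 5.78 in SMC-IRF9-TG pools and at 4.27, 4.56 and 5.64 in NTG pools, so that NTG replicate 3 overlapped with SMC-IRF9-TG (difference 1.02, standard error 0.42, adjusted p = 0.205, limma). The difference was 0.68 without SMC-IRF9-TG replicate 2, its highest pool, and 0.20 with the block for high Xist, which compares the SMC-IRF9-TG pools with NTG replicate 3 alone. The brighter 1416582_a_at was nearly constant at 6.12, 6.14 and 6.15 in SMC-IRF9-TG pools, against 6.28, 5.76 and 6.49 in NTG pools, a difference of -0.03 (95% interval -0.55 to 0.49).

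Pmaip1, whose product Noxa acts mainly on Mcl1 and which p53 and interferon signalling can induce, was measured by 1418203_at at 4.89, 3.47 and 2.83 in SMC-IRF9-TG pools and at 2.52, 2.93 and 2.45 in NTG pools. SMC-IRF9-TG replicate 1 was far above the rest and replicate 3 lay within the NTG range. The values of NTG replicates 1 and 3 were under the lower quartiles of their arrays, 2.57 and 2.66, so they may be background. The difference of 1.10 had a standard error of 0.46 and a 95% interval of 0.04 to 2.15 (adjusted p = 0.213, limma). It was 0.52 without SMC-IRF9-TG replicate 1, and 0.20 with the block for low poly-A controls, which leaves SMC-IRF9-TG replicate 3 to be compared with the NTG pools.

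Bbc3, a p53 target whose product Puma binds every pro-survival member, was measured by 1423315_at at 3.81, 3.54 and 3.67 in SMC-IRF9-TG pools and at 3.42, 3.51 and 3.29 in NTG pools. The groups were separated by a narrow gap, and the difference of 0.27 did not pass the test (standard error 0.19, adjusted p = 0.406, limma).

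Bid, Bcl2l11 and Mcl1 were close to the threshold, and which of them passed depended on the pools and the settings. Over 15 alternatives each, Mcl1 1416881_at passed in 6, Bid 1417045_at in 4 and Bcl2l11 1435448_at in 3. Their differences stayed above 0 in all 15, between 1.05 and 1.83 for Mcl1, 1.07 and 2.26 for Bid, and 1.14 and 2.44 for Bcl2l11. With a block for the 2 NTG pools of high Xist, which leaves NTG replicate 3 as the only NTG pool that bears on the difference, the adjusted p was 0.236 for Mcl1, 0.0351 for Bid and 0.0512 for Bcl2l11 (limma). This is 1 of the 4 passes of Bid, and it rests on a pool in which Bid was at 2.55, under the lower quartile of that array, 2.66.

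**Figure D3:**
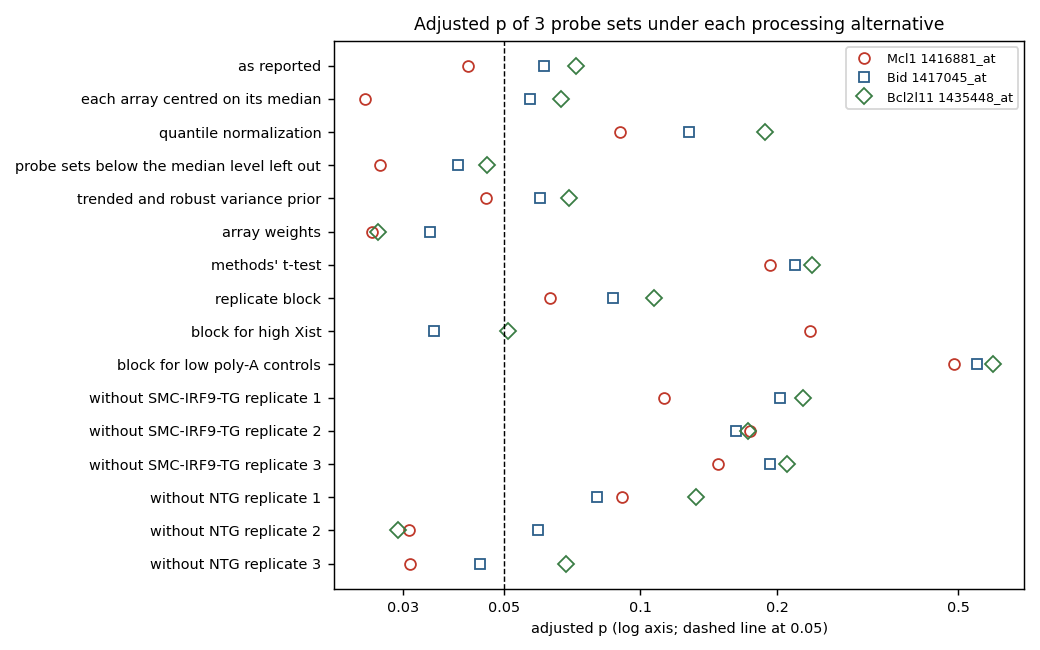
Adjusted p (horizontal log axis, dashed line at 0.05) of Mcl1 1416881_at, Bid 1417045_at and Bcl2l11 1435448_at as reported and under each of 15 processing alternatives (rows). The reported values are 0.0418, 0.0613 and 0.0722, and all 3 lie beyond 0.05 when any SMC-IRF9-TG pool is left out.

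Genes that act beside the family in apoptosis were read from the brightest probe set of each gene. Read in this way, 2706 of all 18193 genes were higher and 1784 lower at an unadjusted p under 0.05 (limma). Of the other Bcl2 family genes, 13 of 18 were measured and 0 were called (2 lower and 0 higher at an unadjusted p under 0.05, limma), with a median difference of 0.00. Its members of highest level, Bnip2 and Bnip3, which bind Bcl2 or mediate stress responses at the mitochondrion, differed by 0.00 and 0.00. Bnip2 had other probe sets that disagreed. Probe set 1453993_a_at was at 7.39, 8.11 and 7.80 in SMC-IRF9-TG pools and at 6.12, 4.61 and 6.43 in NTG pools, a difference of 2.05 that did not pass (adjusted p = 0.0516, limma). Probe set 1422491_a_at was higher by 0.997 (adjusted p = 0.0472, limma) and 1454442_at was lower (adjusted p = 0.0467, limma). The SMC-IRF9-TG mean of 1454442_at was 2.12, under the average lower quartile of the SMC-IRF9-TG arrays, 2.38. These calls passed in 2 of 15 and 2 of 14 alternatives.

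Caspases, the proteases that carry out apoptosis or inflammatory cell death, were measured for 8 of 10 genes, and 0 were called (5 higher and 0 lower at an unadjusted p under 0.05, limma). Their median difference was 0.71, beside -0.05 over the brightest probe sets of all genes. Casp8, the protease that cuts Bid, was at 7.02, 6.94 and 6.92 in SMC-IRF9-TG pools and at 5.11, 5.90 and 6.17 in NTG pools. Its groups did not overlap, and the difference of 1.23 had a standard error of 0.28 and an adjusted p of 0.0597 (limma). Casp12 differed by 0.18.

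Of the 11 genes of mitochondrial release and the apoptosome, all were measured and 0 were called (3 higher and 1 lower at an unadjusted p under 0.05, limma), with a median of 0.27. The channel proteins Vdac1 and Vdac2, the 2 of highest level, differed by -0.12 and 0.65 (adjusted p = 0.718 and 0.150, limma). Of 14 measured regulators of BH3-only genes and proteins, out of 15, 0 were called (3 higher and 1 lower at an unadjusted p under 0.05, limma) and the median was 0.15. Ywhaz, a 14-3-3 protein, and Bag1, a chaperone partner of Bcl2, differed by -0.34 and -0.36. Ywhaz also depended on the probe set. Differences were 0.998, 0.991, 0.912 and 0.50 in 1416102_at, 1448218_s_at, 1448219_a_at and 1416103_at. They were -1.36 in 1436981_a_at and -0.96 in 1439005_x_at, and none of these passed the test. Usp9x, the enzyme that removes ubiquitin from Mcl1 and so stabilizes it, did not pass in its brightest probe set (difference 0.47, adjusted p = 0.222, limma). Another Usp9x probe set, 1420922_at, was at 6.80, 6.72 and 6.37 in SMC-IRF9-TG pools and at 5.32, 4.82 and 5.73 in NTG pools, and it rose by 1.34 (standard error 0.27, adjusted p = 0.0387, limma), a call that passed in 6 of 15 alternatives.

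The inhibitor of apoptosis proteins had 1 call higher among 9 measured genes of 10. Birc5, also called survivin, which serves both cell division and survival, was at 4.94, 5.38 and 4.58 in SMC-IRF9-TG pools and at 2.79, 2.06 and 2.73 in NTG pools. The groups were far apart, with a difference of 2.44 and a standard error of 0.28 (adjusted p = 0.00505, limma), and it passed in 12 of 15 alternatives, among them each pool left out in turn. It did not pass with the methods' t-test, nor with the block for Xist (difference 2.24) or for poly-A spikes (difference 2.06), each of which leaves 1 pool in a group. Birc5 is also 1 of the cycling cell markers, of which 4 of 9 measured were higher, with mean levels of 4.94 to 5.03 in SMC-IRF9-TG pools and 3.25 to 3.66 in NTG pools. The median difference of the inhibitor list was 0.07.

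The death receptor pathway had 1 call lower among 13 measured genes of 14, and its median difference was 0.22. Tnfsf10, the ligand TRAIL, was at 4.56, 4.09 and 4.15 in SMC-IRF9-TG pools and at 5.26, 5.78 and 5.23 in NTG pools. The pools did not overlap, and the difference was -1.16 with a standard error of 0.23 (adjusted p = 0.0408, limma). The call passed in 4 of 15 alternatives and was lost when any pool except NTG replicate 3 was left out, with differences of -1.31 to -0.96 over all 15. Another Tnfsf10 probe set, 1459913_at, differed by 0.14 (adjusted p = 0.709, limma). The last, 1420412_at, differed by -0.68 (adjusted p = 0.142, limma), at a dim SMC-IRF9-TG mean of 2.13 against 2.81 in NTG pools.

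**Figure D4:**
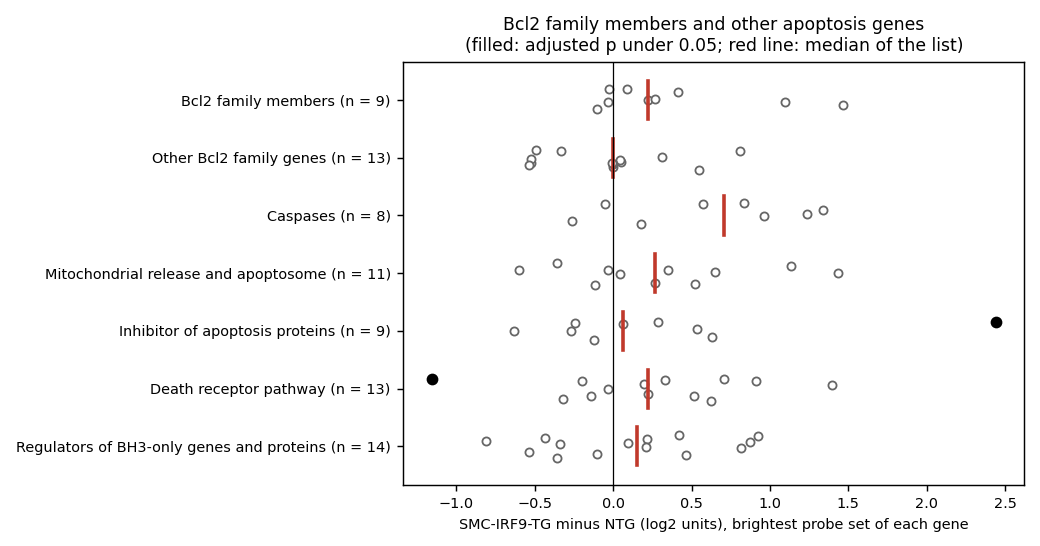
Difference of SMC-IRF9-TG minus NTG in log2 units (horizontal axis) for the brightest probe set of each gene, by list; points are genes (vertical scatter is for display only), filled where the adjusted p is under 0.05, and red lines are list medians. The filled points are Birc5 at 2.44 and Tnfsf10 at -1.16, and no Bcl2 family member is filled.

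Some lists of markers of other cell types held calls. They were also read from the brightest probe sets, and the counts over all genes given above apply. In the fibroblast list 6 of 10 genes were higher, with mean levels of 8.80 to 9.04 in SMC-IRF9-TG pools against 7.28 to 7.46 in NTG pools, and in the endothelial list 2 of 10 were higher, with means of 6.41 to 6.57 against 5.51 to 6.62. Neutrophil markers were called in 0 of 9 cases (4 higher at an unadjusted p under 0.05, limma), with list means of 3.61 to 5.91 in SMC-IRF9-TG pools and 3.58 to 3.69 in NTG pools. S100a8 was at 8.83, 9.99 and 4.34 in the SMC-IRF9-TG pools against 3.42, 4.07 and 2.56 in the NTG pools, so that SMC-IRF9-TG replicate 3 stood apart. Thyroid and epithelial markers had 1 of 8 lower, Cdh1 at a difference of -1.38, and 5 of 8 lower at an unadjusted p under 0.05, with list means of 3.85 to 4.03 in SMC-IRF9-TG pools and 4.39 to 4.51 in NTG pools. T cell, B cell, adipocyte, skeletal muscle and nerve markers had 0 calls among 9, 7, 6, 9 and 6 genes, and at an unadjusted p under 0.05 (limma) 2, 0, 0, 0 and 2 of them were higher and 1, 0, 0, 2 and 1 lower. The skeletal muscle list had means of 2.74 to 2.80 in SMC-IRF9-TG pools and 3.08 to 3.29 in NTG pools. The lower quartile of all values was itself lower in the SMC-IRF9-TG arrays, 2.38 on average against 2.62 in the NTG arrays. The part of this offset in the lower values of dim lists was not tested. The part of these cells in the values of the Bcl2 family was not tested.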

How the data were processed

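Pools of injured carotid arteries from SMC-IRF9-TG and NTG mice were each measured on 1 Affymetrix array. The deposited columns are on the log2 scale, as their values and RMA imply, and the submitters' notes name RMA and Affymetrix Expression Console (versions not given in the sources used here), so the authors had corrected background, normalized between arrays and summarized oligonucleotides before deposit. Array medians were 3.42 to 3.66, but the low end of the deposited values still differed between the groups. Lower quartiles were 2.33 to 2.41 in SMC-IRF9-TG and 2.57 to 2.66 in NTG arrays. The lowest values were 1.07 to 1.16 in SMC-IRF9-TG and 0.43 to 0.47 in NTG arrays. Scanner files were not used here, so that detection was not assessed.

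The 64 control probe sets were left out and 45037 were tested with limma 3.58.1 (lmFit and eBayes) in R 4.3.3, SMC-IRF9-TG minus NTG, with Benjamini-Hochberg adjustment. Of these, 34945 name 1 gene in the annotation table, 932 several and 9160 none; genes were read from the probe set of highest mean. A planned comparison of Bax with Bcl2 was not run. The members and lists were chosen with earlier results of these data known. All member probe sets are named; from each other list, up to 4 called genes with the largest change, or the 2 of highest level. Outside this rule, further probe sets of Bnip2, Tnfsf10 and Ywhaz, and Usp9x, were chosen after their values were seen. The design text calls the samples biological, and the number of arrays limits the precision. The script was tested on simulated data.

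Alternatives were median centring, quantile normalization, a filter at the median level, a trended and robust prior, array weights, the methods' t-test, blocks for replicate number, high Xist and low poly-A controls, leaving out each pool, stricter thresholds and the mean of a gene's probe sets.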

Additional observations from a re-analysis of the deposited data

How the results depend on the processing

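The count of member genes called higher was 0 as reported and 1, in each case Bid, with probe sets below the median level left out, with array weights and with the block for high Xist; with 1 pool left out it was 0 to 1. The count of member probe sets called higher, 1 as reported, was 0 with quantile normalization, the methods' t-test, the replicate block, the block for low poly-A controls and an adjusted p under 0.01, and 3 with the median-level filter or array weights; with 1 pool left out it was 0 to 2, and the count called lower was 0 to 1, the lower call being Bid 1447873_x_at without NTG replicate 3. The cause was not tested. Mcl1 1416881_at had adjusted p-values from 0.0248 to 0.489 over its 15 alternatives (limma or the methods' t-test). The filter left fewer probe sets to test. The block for low poly-A controls leaves SMC-IRF9-TG replicate 3 as the only pool of its group that bears on a difference, and the whole array then had 55 calls in place of 1237, against 192 with the block for high Xist, 700 with quantile normalization and 1608 with median centring. Leaving out 1 pool gave 320 to 1851.

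The sign of a single probe set changed in 26 cases over 13 probe sets, each with an adjusted p of 0.634 or more under that alternative. With arrays centred on their medians, Bcl2l1 1420887_a_at was at 0.037, Bcl2l1 1420888_at at 0.068 and Bad 1416582_a_at at 0.060. With quantile normalization, Bcl2 1422938_at was at -0.034, Bcl2 1457687_at at -0.068 and Bcl2l1 1420887_a_at at 0.18. With array weights, Bcl2l1 1420887_a_at was at 0.081, Bcl2l1 1420888_at at 0.031 and Bid 1448560_at at 0.019. With the block for high Xist, Bcl2 1437122_at was at 0.090, Bcl2l1 1426191_a_at at 0.24, Mcl1 1437527_x_at at 0.28, Mcl1 1456243_x_at at 0.21, Bid 1447873_x_at at 0.16 and Bcl2l11 1426334_a_at at 0.088. With the block for low poly-A controls, Bcl2l1 1426191_a_at was at 0.078, Bak1 1418991_at at -0.022 and Bid 1448560_at at 0.057. With 1 pool left out, Bcl2 1437122_at ranged from -0.45 to 0.18, Bcl2l1 1420887_a_at from -0.33 to 0.14, Bcl2l1 1420888_at from -0.15 to 0.10, Mcl1 1437527_x_at from -0.29 to 0.090 and Bad 1416582_a_at from -0.24 to 0.12.

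Same-numbered pools share only a number: their deviations from the group means correlated at -0.15, -0.0006 and 0.03, and with the replicate block the calls over all probe sets numbered 730 in place of 1237, with 0 members among them. Not every pool correlated best with its own number. Bax and Bcl2 could not be compared. Signal over background was not measured, which limits the dimmest probe sets.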
